A study of Mus musculus with 6 samples.

Results

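The 9 genes described here encode enzymes, a transporter and a division factor of peroxisomal fatty acid oxidation, and were followed in liver of mice lacking KRAP (KRAP-/-) and of wild-type littermates. They are Acox2, Ehhadh, Hsd17b4, Acaa1a, Acaa1b, Scp2, Abcd3, Pex11a and Crot. Every probeset annotated to exactly 1 of these symbols was taken, which gave 17 of 45037 probesets on the array, for 9 of 18193 genes with a probeset of their own. Probesets whose IDs end in _x_at, which may also bind other transcripts, were 3 of the 17 and are given apart.

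Total liver RNA came from 3 KRAP-/- mice and 3 wild-type mice, matched as 3 littermate pairs, all 32 weeks old and fed normal chow, with 1 Affymetrix Mouse Genome 430 2.0 array per mouse. In the KRAP-/- mice part of the coding region of KRAP, a protein bound to the actin cytoskeleton, was replaced with a neomycin resistance cassette in the germ line, and the line was kept on a C57BL6/J background. The only probeset named for KRAP (Itprid2) read 21.6, 21.3 and 20.0 in KRAP-/- liver and 23.9, 24.5 and 22.3 in wild-type liver, and since its place relative to the deleted exons is not known it does not check the genotypes. The labels do not give the sex, the hour or the feeding state at which livers were taken. For the sex, the signals on every array read as those of female mice. Xist, a transcript of the inactive X chromosome, read 66.3 to 85.6 at its brightest probeset over the arrays of both genotypes. The 9 probesets of Y-linked genes read at most 0.526 on any array. A whole liver sample holds several cell types, so that fewer cells of a type and less RNA per cell cannot be told apart.

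Peroxisomes shorten very long-chain and branched fatty acids and the side chains of bile acid precursors, and pass the shortened products to mitochondria. An acyl-CoA oxidase makes the first step and releases hydrogen peroxide, a bifunctional enzyme makes the next steps, and a thiolase cuts off the last unit. In rodent liver many of these genes are switched on by PPARα, a nuclear receptor activated by fatty acids.

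The mouse has a pair of genes for the straight-chain thiolase, Acaa1a and Acaa1b, both on chromosome 9. Their promoters are printed because the probesets of this gene pair gave the least uniform readings below. Those of Pex11a and Crot are printed because both genes read low in the same 2 wild-type livers, as did Ehhadh, Hsd17b4 and Acaa1b. Each runs from 250 bases before to 50 bases after the start of the gene, in the direction of the gene, from RefSeq (GRCm38.p6), and capitals mark the half-site AGGNCA of nuclear receptors such as PPARα on either strand.
Acaa1a, chr9:119341044-119341343, plus strand: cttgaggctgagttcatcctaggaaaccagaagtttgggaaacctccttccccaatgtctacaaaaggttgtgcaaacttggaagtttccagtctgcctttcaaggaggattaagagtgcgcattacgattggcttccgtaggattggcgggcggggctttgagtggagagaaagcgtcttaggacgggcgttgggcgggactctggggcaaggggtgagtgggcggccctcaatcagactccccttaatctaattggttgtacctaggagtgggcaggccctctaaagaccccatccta
Acaa1b, chr9:119157044-119157343, minus strand: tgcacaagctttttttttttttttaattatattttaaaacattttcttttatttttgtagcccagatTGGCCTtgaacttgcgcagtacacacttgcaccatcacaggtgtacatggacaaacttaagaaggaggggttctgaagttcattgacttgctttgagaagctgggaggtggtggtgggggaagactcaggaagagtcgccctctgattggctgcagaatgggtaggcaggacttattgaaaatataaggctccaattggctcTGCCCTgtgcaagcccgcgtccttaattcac
Pex11a, chr7:79743082-79743381, minus strand: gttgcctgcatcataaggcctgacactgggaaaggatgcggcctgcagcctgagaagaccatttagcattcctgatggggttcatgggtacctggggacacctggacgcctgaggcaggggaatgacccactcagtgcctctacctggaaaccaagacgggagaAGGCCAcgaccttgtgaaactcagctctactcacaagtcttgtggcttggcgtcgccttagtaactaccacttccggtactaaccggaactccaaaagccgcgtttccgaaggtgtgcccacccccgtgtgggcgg
Crot, chr5:8997097-8997396, minus strand: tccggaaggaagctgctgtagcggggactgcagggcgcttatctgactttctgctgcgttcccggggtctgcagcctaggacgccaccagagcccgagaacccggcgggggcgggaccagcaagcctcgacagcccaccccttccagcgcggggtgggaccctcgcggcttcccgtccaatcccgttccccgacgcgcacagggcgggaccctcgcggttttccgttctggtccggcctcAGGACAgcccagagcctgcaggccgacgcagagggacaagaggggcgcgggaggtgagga
The window of Acaa1a held no such half-site, that of Acaa1b held 2, and those of Pex11a and Crot held 1 each. Over the 10 windows of the 8 members searched, 8 held AGGNCA and 1, that of Scp2, held AGGTCA. Of the 32851 promoters in the same table, 57.2% held AGGNCA and 16.3% held AGGTCA. A direct repeat of AGGNCA with 1 base between the copies, the arrangement bound by PPARα with its partner, was in none of the 10 and in 0.381% of all promoters. These are matches of letters and not known binding sites.

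Signals were divided by the median of their array, so that 1 is the level of the middle probeset. Of the 17 probesets, 15 had a mean of at least 0.5 and were tested. The remaining 2, a second probeset each of Abcd3 and Crot, read at most 0.536 on any array, about as low as the 9 probesets of Y-linked genes, which read at most 0.526 on these 6 arrays. Both genes were bright at their first probeset, and the dim pair is not used further. Array medians were 20.2 to 23.4 in KRAP-/- and 19.1 to 22.6 in wild-type liver. The liver label was checked with 6 hepatocyte markers, whose summed signal was 3344 to 3811 in KRAP-/- and 3468 to 3595 in wild-type liver.

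Across the 15 tested probesets, 1 was higher in KRAP-/- liver and none was lower at an adjusted p under 0.05 from limma. Over all 28531 probesets tested, 0.431% were called higher and 0.978% lower, 1.41% in all. At an unadjusted p under 0.05 there were 6 member probesets on the higher and 1 on the lower side, 46.7% of the 15, against 14.9% of all probesets in both directions and 5.58% on the higher side. This count of 7 was 5 without pair 1, 3 without pair 2 and 8 without pair 3, and 4 without the pair as a block. The median log2 fold change of KRAP-/- over wild-type was 0.20 for the member probesets and -0.04 for all probesets tested. Of the 15, 12 lay above 0, as did 44.8% of all probesets, and 4 were higher in every pair, as were 15.3% of all. These counts include the 3 _x_at probesets. Among the 12 others none was called, and 5 (41.7%) had an unadjusted p under 0.05 from limma, 4 higher and 1 lower. Their median log2 fold change was 0.16, 10 lay above 0, and 2 (16.7%) were higher in every pair, near the share of all probesets. Probesets of 1 gene share their target and genes of 1 pathway may move together, so that these counts are not of independent measurements.

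**Figure D1:**
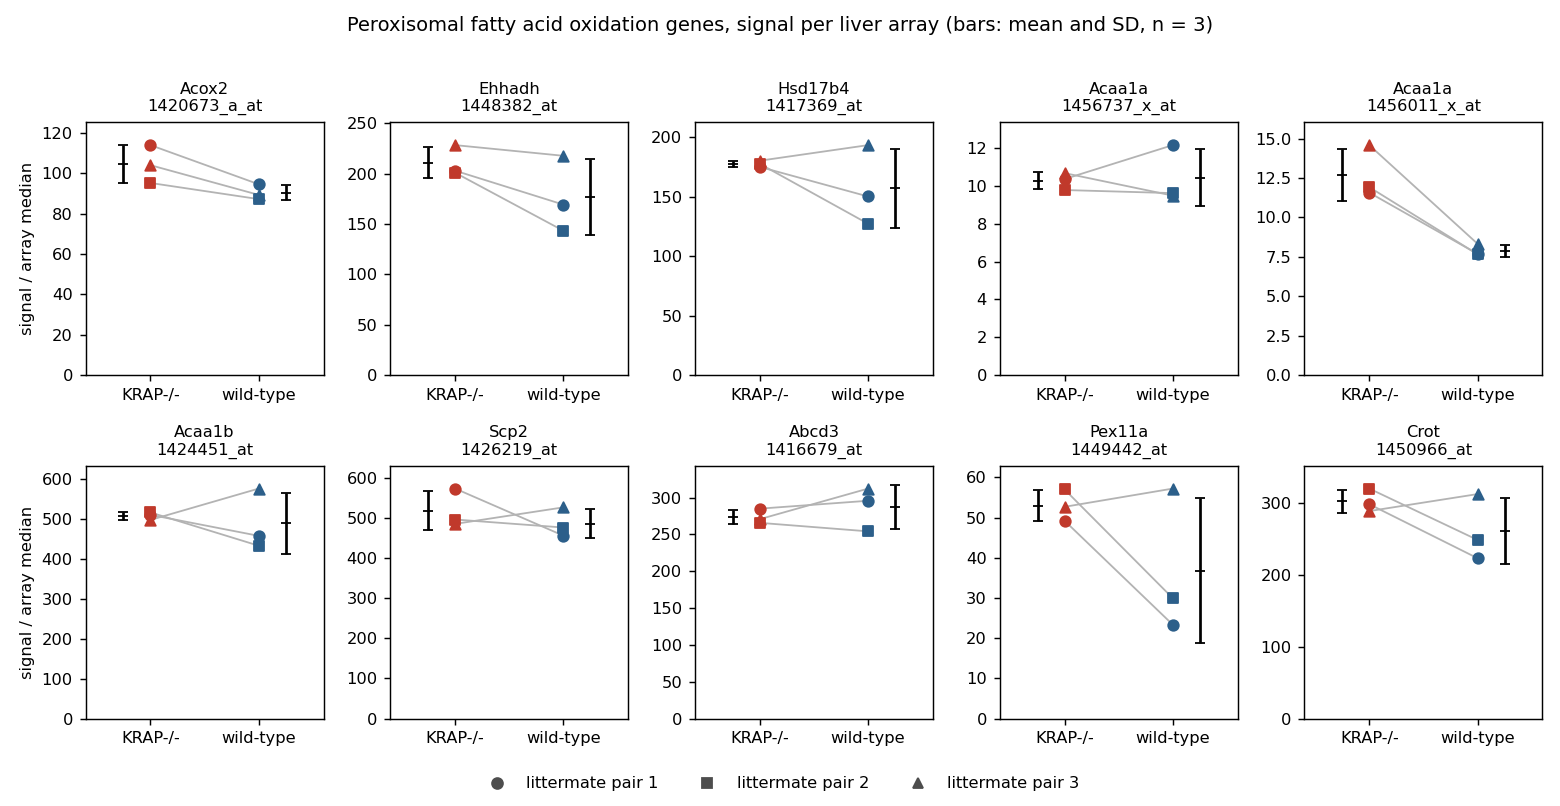
Signal in units of the array median (linear axes from 0) for 8 members at the brightest probeset that is not _x_at and for both _x_at probesets of Acaa1a, in KRAP-/- liver (left, red) and wild-type liver (right, blue). Each point is a mouse, thin lines link the littermates of a pair, and the error bars show mean and SD (n = 3). The wild-type mouse of pair 3 (triangle) reads 57.2 for Pex11a, against 23.3 and 29.9 in the other wild-type mice, and the KRAP-/- mice lie between 49.2 and 57.0.

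The oxidation step was read by 1 probeset. Acox2 (probeset 1420673_a_at), the oxidase for branched chains and bile acid precursors, had signals of 114, 95.3 and 104 in the KRAP-/- livers of pairs 1, 2 and 3, and of 94.6, 87.3 and 89.4 in the wild-type livers. The KRAP-/- values all lay above the wild-type values, by a narrow gap between 95.3 and 94.6. No overlap in this direction was seen for 7.8% of all probesets tested. Its log2 fold change was 0.21, with a 95% interval of 0.03 to 0.38 and adjusted p = 0.27 from limma, and the ratio to the littermate was above 1 in all 3 pairs, at 1.21, 1.09 and 1.16.

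The next steps are carried out by a pair of bifunctional enzymes, each a hydratase and a dehydrogenase in 1 protein. Ehhadh (1448382_at), the L-specific enzyme and a classical PPARα target in rodents, read 203, 201 and 228 in KRAP-/- liver and 169, 143 and 218 in wild-type liver. The wild-type mouse of pair 3 reached the level of the KRAP-/- mice, and the other wild-type mice lay below them. The log2 fold change was 0.27 (95% interval 0.06 to 0.48, adjusted p = 0.22 from limma).

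Hsd17b4, the D-specific enzyme, which also acts on bile acid precursors, read 175, 177 and 180.1 in KRAP-/- liver and 150.0, 127 and 193 in wild-type liver at 1417369_at. Here too the wild-type mouse of pair 3 was the highest of its genotype, and above all 3 KRAP-/- mice. For Hsd17b4 the log2 fold change was thus 0.20 (95% interval -0.05 to 0.45, adjusted p = 0.43 from limma). At the _x_at probeset, 1455777_x_at, Hsd17b4 read 139, 149.8 and 161 in KRAP-/- liver and 118, 98.1 and 135 in wild-type liver. The genotypes did not overlap there, as for 7.8% of all probesets tested with KRAP-/- higher. The log2 fold change at this probeset was 0.37 (95% interval 0.15 to 0.58, adjusted p = 0.11 from limma). The difference between the log2 ratios of the _x_at and the other probeset was 0.01, 0.13 and 0.35 in the 3 pairs.

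The thiolase step gave the only call. Acaa1a, thiolase A, was represented by a pair of _x_at probesets and no other of its own. At 1456011_x_at the signals were 11.6, 11.9 and 14.6 in KRAP-/- liver and 7.69, 7.67 and 8.33 in wild-type liver, and the genotypes were well apart. That is a log2 fold change of 0.68 (95% interval 0.42 to 0.94, adjusted p = 0.026 from limma). The ratios to the littermate were 1.5, 1.55 and 1.75. This was also the only member probeset to reach 1.5 in every pair, the limit used in the study's methods, which 1.12% of all probesets reached upwards and 1.38% downwards. The call was lost when dim probesets were not filtered out (adjusted p = 0.38 from limma) and without limma's intensity trend (adjusted p = 0.42), and with _x_at probesets left out no member was called.

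At 1456737_x_at Acaa1a read 10.4, 9.79 and 10.7 in KRAP-/- liver and 12.2, 9.62 and 9.49 in wild-type liver. These values overlapped, with a log2 fold change of -0.01 (95% interval -0.29 to 0.27, adjusted p = 0.98 from limma). The log2 ratio at 1456011_x_at exceeded that at 1456737_x_at by 0.82, 0.61 and 0.64 in the 3 pairs (exact sign-flip permutation test, 2-sided, p = 0.25, the smallest that 3 pairs allow). This difference was looked at after the values had been seen, 3 pairs cannot take the test below the threshold, and which other transcripts either probeset binds was not tested.

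Acaa1b (1424451_at), thiolase B, read 509.9, 516 and 497 in KRAP-/- liver and 457, 433 and 576 in wild-type liver at its own probeset. The wild-type mouse of pair 3 was the highest of all 6, and the log2 fold change was 0.07 (95% interval -0.16 to 0.29, adjusted p = 0.80 from limma). A further pair of probesets is annotated to both thiolases and so falls outside the 17. They had log2 fold changes of 0.08 (adjusted p = 0.78 from limma) and 0.07 (adjusted p = 0.79), close to the value of the probeset of Acaa1b alone. Their mean signals over the 6 arrays were 225 and 331. The probeset of Acaa1a that was called, 1456011_x_at, averaged only 10.3, and 1456737_x_at averaged 10.4.

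**Figure D2:**
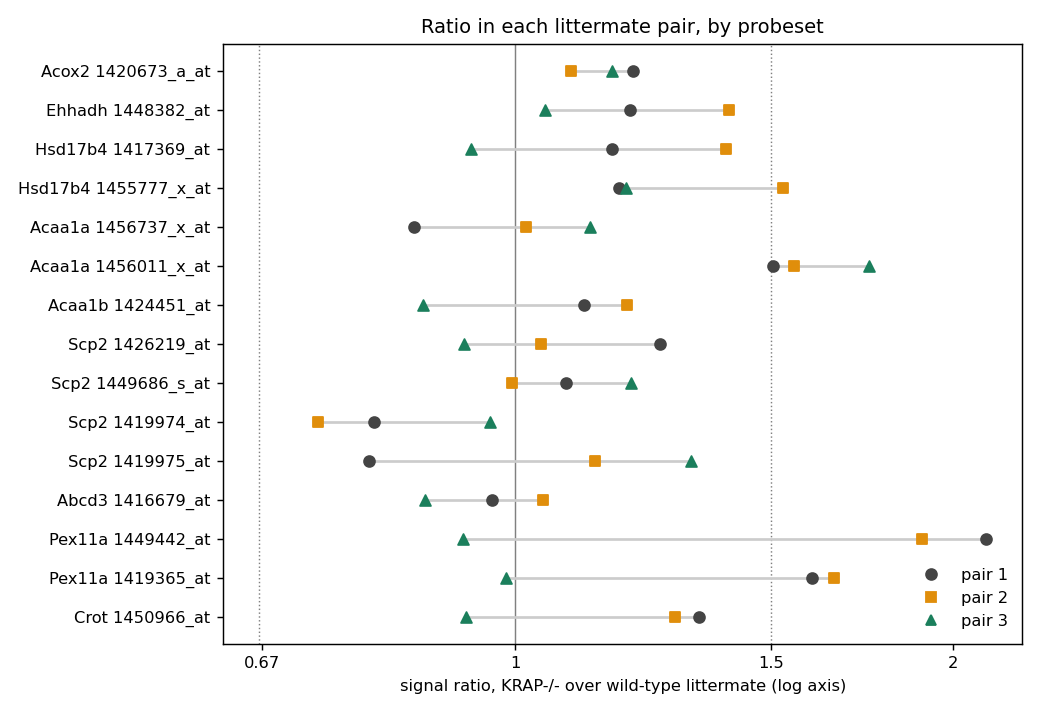
Ratio of the signal in the KRAP-/- mouse to that in its wild-type littermate for each of the 15 tested probesets, on a log axis, with 1 marker for each pair and dotted lines at 1.5 and its inverse. Only 1456011_x_at of Acaa1a has all 3 ratios at or above 1.5, and both probesets of Pex11a have pairs 1 and 2 above 1.5 and pair 3 at 0.921 and 0.985.

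Scp2 encodes a thiolase for branched chains, together with a lipid carrier protein made from the same gene. Its brightest probeset, 1426219_at, read 573, 496 and 485 in KRAP-/- liver and 456, 476 and 527 in wild-type liver. The values overlapped, and the log2 fold change was 0.09 (95% interval -0.12 to 0.31, adjusted p = 0.70 from limma). The next probeset, whose ID ends in _s_at for transcripts that share sequence, read 324, 309 and 369.9 in KRAP-/- liver and 299, 311 and 308 in wild-type liver, a log2 difference of 0.12 (95% interval -0.06 to 0.31, adjusted p = 0.52 from limma). At 2 dimmer probesets the log2 fold changes were -0.28 (95% interval -0.54 to -0.01, adjusted p = 0.31 from limma) and 0.08 (adjusted p = 0.84). The probeset at -0.28 read 14.8, 9.95 and 12.1 in KRAP-/- liver and 18.5, 13.6 and 12.6 in wild-type liver, and was the only 1 of the 15 to lie below its littermate in every pair, as 22.4% of all probesets did.

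Abcd3 (1416679_at), the transporter PMP70 that carries acyl-CoAs into the peroxisome, read 285, 266 and 271 in KRAP-/- liver and 296, 254 and 312 in wild-type liver. The KRAP-/- values lay inside the range of the wild-type values. Its log2 fold change was -0.06 (95% interval -0.25 to 0.12, adjusted p = 0.76 from limma).

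Crot, carnitine octanoyltransferase, prepares shortened chains for export to mitochondria. Its probeset 1450966_at read 298, 319 and 288 in KRAP-/- liver and 223, 248 and 312 in wild-type liver. Again the wild-type mice of pairs 1 and 2 lay below all KRAP-/- mice and that of pair 3 among them. The log2 fold change was 0.22 (95% interval -0.02 to 0.47, adjusted p = 0.38 from limma), with ratios of 1.34, 1.29 and 0.924 in the 3 pairs.

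Pex11a, a membrane protein that drives the elongation and division of peroxisomes and is induced by PPARα in rodent liver, had the largest ratios in single pairs. Its brighter probeset, 1449442_at, read 49.2, 57.0 and 52.7 in KRAP-/- liver and 23.3, 29.9 and 57.2 in wild-type liver. The ratios were 2.11 and 1.90 in pairs 1 and 2 and 0.921 in pair 3. The log2 fold change was 0.63 (95% interval 0.19 to 1.07, adjusted p = 0.18 from limma). Its other probeset, 1419365_at, gave a like picture, with 26.2, 32.9 and 34.6 in KRAP-/- liver and 16.4, 19.9 and 35.1 in wild-type liver, a log2 difference of 0.46 (95% interval 0.14 to 0.79, adjusted p = 0.18 from limma). Without pair 3, the log2 fold changes were 1.0 (adjusted p = 5.0e-04) and 0.70 (adjusted p = 0.0070), and Pex11a passed at both. Without pair 1 or pair 2 those of the brighter probeset were 0.40 and 0.48 and neither passed.

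**Figure D3:**
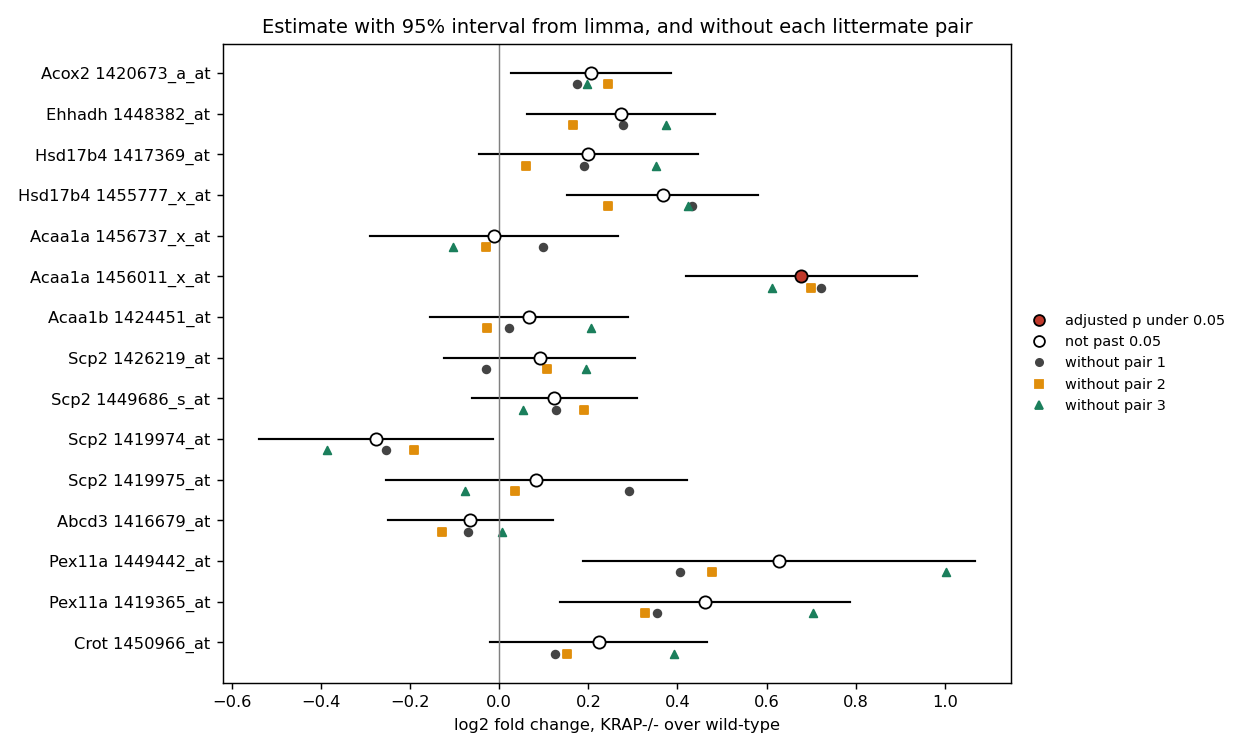
Log2 fold change of KRAP-/- over wild-type for each tested probeset, with the 95% interval from limma (large points and lines, filled where the adjusted p is under 0.05) and the estimate without each littermate pair (small markers). Acaa1a 1456011_x_at stays between 0.61 and 0.72 without any 1 pair, and Pex11a moves between 0.40 and 1.0 at its brighter probeset.

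The 3 wild-type livers thus differed among themselves more than the 3 KRAP-/- livers for several of these genes. At the brightest probeset that is not _x_at of 8 members, the median SD of the log2 signal was 0.09 in KRAP-/- and 0.23 in wild-type liver, and over all probesets tested these medians were 0.21 and 0.23. The SD was larger in wild-type liver for 6 of the 8, the exceptions being Acox2 and Scp2, and for 53.4% of all probesets. The wild-type mouse of pair 3 was the highest wild-type mouse for 7 of the 8, all but Acox2, and for 33% of all probesets. Its signal was 1.31 times the mean of the other wild-type mice in the median of the 8, ranging from 0.983 for Acox2 to 2.15 for Pex11a, and 0.996 times in the median of all probesets. These comparisons within wild-type liver were chosen after the values had been seen, and are given without a test.

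Markers of other tissues also differed among the wild-type livers, at low levels. The summed signal of 4 skeletal muscle markers was 1.73 to 1.93 in KRAP-/- liver, and 6.31, 4.81 and 0.975 in the wild-type livers of pairs 1, 2 and 3. That of 3 adipocyte markers was 0.206 to 1.26 in KRAP-/- liver and 3.40, 1.5 and 0.793 in wild-type liver, with Adipoq at 0.0318 to 0.253 in KRAP-/- and 0.444 to 2.20 in wild-type liver. The summed signals of markers of sinusoidal cells were lower in KRAP-/- liver. For 5 Kupffer cell markers they were 112 to 116 against 134 to 158 in wild-type liver, and Clec4f alone was called (adjusted p = 0.026 from limma). Of all probesets tested, 0.978% were called lower. Most of the Kupffer cell sum was Cd5l and Vsig4, with means of 43.9 and 43.1. Clec4f, Cd5l, Adgre1 and Vsig4 lay lower without overlap, Vsig4 with adjusted p = 0.54 from limma, while Marco overlapped. For 4 stellate cell markers the sums were 29.0 to 32.8 against 38.9 to 47.0, none was called and 1, Lrat, had adjusted p = 0.070. Most of the stellate cell sum was Rgs5, with a mean of 26.0. At their brightest probesets Lrat and Rgs5 lay lower without overlap, while Des and Col1a1 overlapped. Of all probesets tested, 12.3% lay below wild-type without overlap. Dimmer probesets of Rgs5 had log2 fold changes of 0.24, -0.65 and, at the _x_at probeset, 0.08. The sums of the other 4 marker lists overlapped between the genotypes, with 5.35 to 6.70 in KRAP-/- and 5.60 to 9.76 in wild-type liver for 3 brown adipocyte, 2.14 to 3.73 and 3.06 to 4.01 for 4 lymphocyte, 7.18 to 11.3 and 8.41 to 10.3 for 2 erythroid, and 1.81 to 3.85 and 2.81 to 2.89 for 3 bile duct cell markers. Most of the brown adipocyte sum was Elovl3, with a mean of 6.18. Ucp1 read 0.0616 to 0.176 in KRAP-/- liver and 2.35, 0.235 and 0.443 in wild-type liver, without overlap (adjusted p = 0.38 from limma). Cidea, at 0.238 to 0.571 and 0.133 to 1.44, overlapped as Elovl3 did. The part of all these markers in the readings of the 9 genes was not tested.

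Beyond the 9 genes, 60 other genes of the peroxisome and its control were listed, and 53 of them had a tested probeset that is not _x_at. By limma at the brightest such probeset, 1 gene fell and the other 52 were not called in either direction. Of all probesets tested, 0.978% were called lower and 0.431% higher. At an unadjusted p under 0.05, 6 genes were higher and 7 lower, 24.5% of the 53. This held for 14.9% of all probesets in both directions and 5.58% on the higher side. The median log2 fold change was -0.03, against -0.04 for all probesets tested.

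The gene that fell was Nudt7, a peroxisomal hydrolase that breaks down coenzyme A and its acyl esters. Its brightest probeset read 55.8, 57.9 and 62.2 in KRAP-/- liver and 171, 129.7 and 110.1 in wild-type liver. The highest KRAP-/- value lay well below the lowest wild-type value. Of all probesets, 12.3% lay below wild-type without overlap, by a gap of any size. The log2 fold change was -1.20, standard error 0.13, adjusted p = 0.0039 from limma. On the log2 scale its next probesets fell by 1.47 (adjusted p = 0.0038) and by 1.44 (adjusted p = 0.011), and its dimmest had -1.68 (adjusted p = 0.067). Each KRAP-/- mouse lay below its littermate, pair 3 included, with ratios of 0.325, 0.447 and 0.565. Nudt7 was not called without the filter on dim probesets (adjusted p = 0.39 from limma) or without the intensity trend (adjusted p = 0.42).

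None of 8 other enzymes of peroxisomal oxidation passed, with a median log2 fold change of -0.04. Eci2, an isomerase for unsaturated chains, read 146, 138 and 139.6 in KRAP-/- liver and 92.4, 93.5 and 127 in wild-type liver, a log2 difference of 0.46 (adjusted p = 0.085 from limma), and was called when pair 3 was left out (adjusted p = 0.0063) but not when pair 1 (0.35, adjusted p = 0.16) or pair 2 (0.40, adjusted p = 0.17) was. Acox3, an oxidase of branched chains, was dim and had -0.54 (adjusted p = 0.40). Of 10 thioesterases, acyltransferases and coenzyme A hydrolases Nudt7 alone fell, and Acot3, whose _s_at probeset may read other members of its gene cluster, had 0.46 (adjusted p = 0.31) and of the 3 pairs passed without pair 3 alone (0.78, adjusted p = 0.017).

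None of 7 further transporters and synthetases passed, with Slc25a17, a carrier of cofactors, at -0.34 (adjusted p = 0.41 from limma) and Pxmp4, a membrane protein, at 0.29 (adjusted p = 0.21). Of 7 genes listed with hydrogen peroxide and oxidases, among them catalase and also Ephx2 and Idh1, which are not oxidases, none passed. Dao and Hao2, oxidases of D-amino acids and of hydroxy acids, had the largest values, -0.79 (adjusted p = 0.58 from limma) and -0.50 (adjusted p = 0.27). Dao was dim, at 0.286 to 1.18 over the arrays, where the Y-linked probesets read at most 0.526. Without pair 1, Hao2 had -0.80 (adjusted p = 0.0080 from limma), and it was not called without pair 2 or pair 3. Of 15 peroxins and division factors none passed, with Pex6 at -0.30 (adjusted p = 0.25) and Pex26 at 0.27 (adjusted p = 0.31), and none of 3 genes of ether lipid synthesis did, with Far1 at -0.37 (adjusted p = 0.53) and Gnpat at -0.33 (adjusted p = 0.22).

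**Figure D4:**
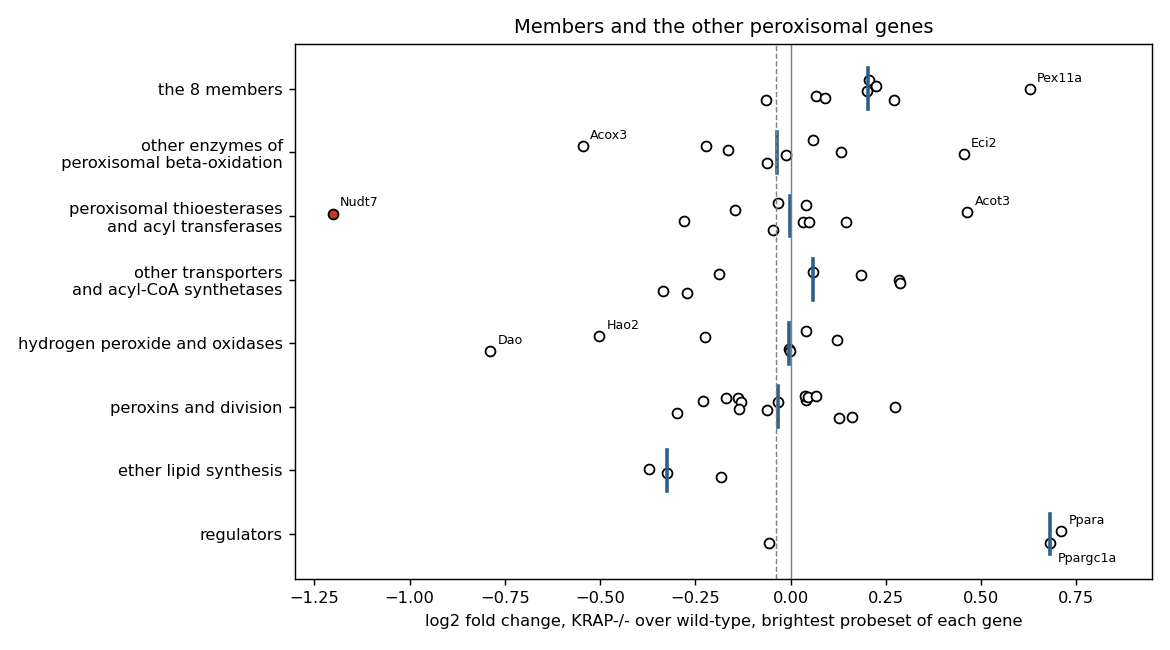
Log2 fold change of KRAP-/- over wild-type for 8 members and 53 other peroxisomal genes in 7 lists, each at its brightest probeset that is not _x_at (points, filled where the adjusted p from limma is under 0.05, spread vertically for sight). Blue bars are list medians and the dashed line is the median of all probesets tested, and Nudt7 at -1.20 is the only filled point.

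Of 3 regulators, none passed at its brightest probeset. Ppara, which encodes PPARα, read 96.1, 92.0 and 83.1 in KRAP-/- liver and 38.1, 58.7 and 75.0 in wild-type liver, without overlap and with the wild-type mouse of pair 3 again nearest to the KRAP-/- mice. Of all probesets tested, 7.8% lay above wild-type without overlap. The log2 fold change of Ppara was 0.71 (adjusted p = 0.11 from limma), with 0.40 without pair 1 (adjusted p = 0.15), 0.74 without pair 2 (adjusted p = 0.025) and 0.99 without pair 3 (adjusted p = 0.0030). A dimmer probeset of Ppara, at 66.3, 68.1 and 61.9 in KRAP-/- liver and 33.7, 39.6 and 53.4 in wild-type liver, had 0.66 (adjusted p = 0.054 from limma) and passed under 5 settings that kept all 6 arrays (adjusted p = 0.022 to 0.048). Its dimmest overlapped between the genotypes, at 42.4, 42.9 and 39.7 in KRAP-/- liver and 30.3, 30.4 and 43.0 in wild-type liver. Ppargc1a, a coactivator of PPARα, read 7.30, 7.19 and 8.27 in KRAP-/- liver and 4.44, 5.31 and 4.46 in wild-type liver, a log2 difference of 0.68 (adjusted p = 0.060 from limma). This probeset of Ppargc1a passed when pair 2 was left out (adjusted p = 0.025) and when littermates were not paired (adjusted p = 0.040), but not when pair 1 (adjusted p = 0.12) or pair 3 (adjusted p = 0.11) was left out. Its other probesets had smaller log2 fold changes of 0.55 (adjusted p = 0.24 from limma), 0.34 (adjusted p = 0.44), 0.51 (adjusted p = 0.27) and, at the _x_at probeset, 0.50 (adjusted p = 0.16). Those at 0.34 and 0.50 overlapped between the genotypes.

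The mean of the centred log2 signals of the 8 members was 0.12, 0.09 and 0.09 in the KRAP-/- livers and -0.21, -0.25 and 0.17 in the wild-type livers. Among 13107 other genes, the 5 whose signal followed this order of the 6 arrays most closely were Etfdh, Slc6a16, Prr29, Chrna2 and Prss51, with Pearson's r of 0.996, 0.996, 0.993, 0.993 and 0.989. Of these Etfdh, the mitochondrial dehydrogenase that passes electrons from fatty acid oxidation to ubiquinone, was bright, with 147, 142 and 139.6 in KRAP-/- liver and 115, 112 and 152 in wild-type liver. The other 4 were dim, with means of at most 2.31 in either genotype. With 6 arrays that share their scaling and pairing, so many genes compared and the genes picked for the highest r, these values describe likeness alone.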

How the data were processed

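Liver RNA was hybridized to 1 array per mouse. The authors deposited linear signal intensities of probesets from GCOS (its version and settings are not given in the sources used here), and array medians showed that these were not yet normalized to the 50th percentile or to wild-type. Signals were divided by the array median, floored at 0.1 and taken as log2. After 64 control probesets were left out, the 28531 that averaged 0.5 or more entered a limma fit (version 3.58.1, R 4.3.3) with genotype and littermate pair, an intensity trend, Benjamini-Hochberg adjustment over all of them and 0.05 as the threshold. The fit was tested on simulated data.

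Replicate numbers in the labels match the littermate pairs that the study's methods compare, and the pairing rests on this. Deviations from the genotype means correlated by 0.043, 0.0095 and -0.012 within the pairs. Symbols came from the platform annotation, in which 34945 probesets have 1 symbol, 932 have several and 9160 have none. With control probesets included, the Entrez IDs of 34754 of 34958 with 1 symbol were in the RefSeq table of GRCm38.p6, each with the same symbol. The named genes were all probesets of the members, any other listed gene past the threshold, the 2 with the largest change in each list, and the 5 most alike genes. The members and lists were chosen with earlier results of these data known. Figures were made with Python 3.11.15 and matplotlib 3.10.9. The limma p-values rest on the spread of the differences within the 3 littermate pairs, which limma draws toward an intensity trend over all probesets tested. They do not measure the spread between mice of 1 genotype, and the number of arrays limits the precision. The arrays of other tissues, proteins and probe positions were not analysed here.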

Additional observations from a re-analysis of the deposited data

How the results depend on the processing

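Results were recomputed with 13 alternatives. The median log2 fold change of the member probesets stayed between 0.15 and 0.25, and no member was called lower by limma under any of them. The count of members called higher was 0 without the filter on dim probesets, without the intensity trend and without _x_at probesets (with 3, 1 and 5 of the members at an unadjusted p under 0.05, against 7 in the main analysis, 4 without the pair as a block and 3 to 8 without single pairs), and 1 to 3 without single pairs. Without pair 3 the 3 were Acaa1a and both probesets of Pex11a. Acaa1a 1456011_x_at had adjusted p = 0.38 without the filter and 0.42 without the trend, and 0.018 to 0.045 under the 10 other alternatives that hold it. The other peroxisomal genes called lower were 0 without the filter and 0 without the trend, and 1 to 2 without single pairs, and those called higher were 1 without the pair as a block and 0 to 3 without single pairs. Over all probesets, calls were 123 higher and 279 lower in the main analysis, 172 and 206 with the values as deposited, 151 and 208 with quantile normalization, 0 and 0 both without the filter and without the trend, and 123 to 295 higher and 288 to 469 lower without single pairs (186 and 349 without pair 2, 295 and 469 without pair 3), while 4551 and 3089 probesets had an unadjusted p under 0.05 without the filter and without the trend. Without the pair as a block 1 member was called, Acaa1a with adjusted p = 0.027, and the block changed no other call of a member.

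The sign turned for some members near 0. Acaa1a 1456737_x_at had 0.038 with the values as deposited, 0.052 with quantile normalization and -0.10 to 0.10 without single pairs. Without single pairs, Scp2 had -0.029 to 0.19 at its brightest probeset and -0.076 to 0.29 at its dimmest, Acaa1b had -0.027 to 0.21 and Abcd3 had -0.13 to 0.0054. The causes were not tested. Signals near the level of the Y-linked probesets limit what can be said of dim probesets.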
